A study of Homo sapiens with 12 samples.

Results

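The top dose step compares MDA-MB-231 cells treated with 0.5 μM Paclitaxel with the same cells treated with 0.05 μM, and asks what the last 10-fold increase of dose adds. Its members are the 4 libraries that the labels assign to these doses, 2 at each, of 12 libraries in all. MDA-MB-231 is a triple negative breast cancer line of mesenchymal character, here carrying a nuclear GFP from a histone transfection and labelled wild type, and it was grown as cells suspended in Matrigel, a basement membrane gel. All 4 libraries were taken on day 4, and the labels place the addition of drug on the 2nd day. The methods for the imaging cultures, whose procedure was repeated for RNA, place it on a later day, so the time of exposure is not settled here and the labels were followed. The other 8 libraries are 2 of untreated cells on day 2, 2 of untreated cells on day 4, and 2 each of cells treated with 0.0005 and 0.005 μM and taken on day 4. According to the methods, the gels were broken down with collagenase and dispase before RNA was extracted, and the cultures were enlarged to give enough cells. The methods call the 2 replicates of a dose biological. They do not say whether these were separate cultures, and p-values measure the spread between these libraries.

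Paclitaxel binds β-tubulin in the microtubule lattice and stabilizes it, so that a dividing cell cannot build a working spindle and is held in mitosis by the spindle assembly checkpoint. Cells that leave this arrest without dividing become polyploid or die, and both outcomes are accompanied by stress signalling. NF-κB factors carry inflammatory and stress signals to the promoters of cytokines and chemokines, AP-1 factors of the FOS and JUN families do so for growth and stress signals within minutes to hours, and these programs are active at baseline in MDA-MB-231 cells.

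The 4 libraries held 70642594 and 66601851 counts at 0.05 μM and 65352340 and 51527342 at 0.5 μM. Levels are given as CPM, counts scaled to a common library size, with sizes adjusted by the trimmed mean of M-values. The 12 tested markers of a mesenchymal breast line had a summed level of 4540 to 4900 CPM at 0.05 μM and 3937 to 4530 CPM at 0.5 μM. Of these, 8 (66.7%) had both libraries at 0.5 μM below both at 0.05 μM, against 20.9% of all tested genes. Their median log2 fold change was -0.25. VIM, the intermediate filament vimentin, stood at 1091 and 1049 CPM at 0.05 μM and at 1019 and 797 CPM at 0.5 μM. ESR1, the estrogen receptor, lay between 0.24 and 0.35 CPM in the 4 libraries. It belongs to a list of luminal and receptor markers that was not low as a whole. The 9 tested genes of that list had a summed level of 747 to 868 CPM at 0.05 μM and 703 to 752 CPM at 0.5 μM. The summed level of 7 tested immune markers lay between 5.12 and 6.46 CPM, and that of 4 tested endothelial markers between 2.33 and 3.24 CPM. Among the fibroblast markers, 7 were tested, with a summed level of 19.3 to 21.7 CPM at 0.05 μM and 14.9 to 15.9 CPM at 0.5 μM. The part of other cells in the results was not tested.

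The step from 0.05 to 0.5 μM was small. Of 25249 genes tested, 0 passed an adjusted p-value of 0.05 in edgeR's quasi-likelihood test over all 12 libraries (0% called), and the smallest adjusted p-value was 0.706. An unadjusted p-value under 0.05 was reached by 649 genes, 2.57% of those tested, with 305 higher (1.21%) and 344 lower (1.36%) at 0.5 μM. Among the 11193 genes with a mean of at least 8 CPM over the 12 libraries, the median size of the log2 fold change was 0.15, and its median standard error was 0.17. A change of over 2-fold was fitted for 1 of these genes, FOSB, and of over 1.5-fold for 41. The median log2 fold change of all tested genes was 0.05. Both libraries at 0.5 μM lay below both at 0.05 μM in 20.9% of tested genes and above both in 19.3%. Among the genes of at least 8 CPM these shares were 27.4% and 21.5%. Both pairs of shares are the background for the counts of separated genes given below. The smallest p-value that exact permutation allows with 2 libraries in each group is 0.333, and p-values below therefore rest on a model over all genes, edgeR's unless DESeq2 is named. No gene of the top step was called in that fit, and p-values there are unadjusted unless stated.

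The call count differed between fits on different libraries. The 2 untreated libraries of day 2 stood apart from each other, with a median replicate difference of 0.42 on the log2 scale, against 0.15 at 0.05 μM and 0.12 at 0.5 μM. The fit of all 12 libraries had a common biological coefficient of variation of 15.6%, the fit of the 8 treated libraries one of 10.1% and the fit of the 4 libraries of the step alone one of 12.4%. With the 8 treated libraries edgeR called 9 genes, all lower at 0.5 μM (0.0359% of genes tested called lower, 0 higher). With the 4 libraries alone it called 10, all lower (0.0419% called lower). Leaving out the 1st untreated day 2 library gave 8 calls and leaving out the 2nd gave 7. FOS, RRAD, MMP3, FN1 and ICAM1 were called lower in each of the 5 edgeR fits on fewer libraries that gave calls, as was the unnamed identifier that follows MMP3 below, CXCL1 in 4 and IL1B in 3 of them. DESeq2 on all 12 libraries called 4 genes, all lower (0.0158%), which were RRAD, FOS, MMP3 and an unnamed identifier whose counts were nearly identical to those of MMP3. DESeq2 on the 8 treated libraries, a fit chosen after seeing the data, called 405 genes lower (1.62%) and 15 higher (0.0599%). These are counts of identifiers, and nearly identical identifiers, such as CNOT3 and its unnamed partners, are counted separately. edgeR on the 10 libraries of day 4, also chosen after seeing the data, called 7, all lower (0.0279%). Unadjusted p-values under 0.05 were also more frequent in fits on fewer libraries. With the 4 libraries alone 7.13% of genes reached one lower and 2% higher, with the 8 treated libraries 8.28% and 4.44%, and with the 10 of day 4 8.24% and 2.9%. DESeq2 gave 1.22% lower and 0.788% higher on 12 libraries, and 7.46% and 2.77% on the 8 treated libraries. In these fits, then, the adjusted calls were lower at the higher dose with the exception of those 15.

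Inflammatory and NF-κB target genes were the list with the lowest median among those with at least 7 tested members. Of 30 matched genes 29 were tested, 26 were lower at 0.5 μM and 16 reached an unadjusted p-value under 0.05, all 16 lower. The median log2 fold change was -0.50, against 0.05 for all genes tested, and 23 members (79.3%) had both libraries at 0.5 μM below both at 0.05 μM. The median stayed between -0.48 and -0.55 when any 1 of the 4 libraries was left out. Of the 29 members edgeR called 2 lower with the 4 libraries alone, 3 with the 8 treated libraries and 2 with the 10 of day 4, and DESeq2 on 12 libraries called 0, with 17 at an unadjusted p-value under 0.05. DESeq2 on the 8 treated libraries, the fit chosen after seeing the data with 1.62% of all genes called lower, called 13 lower. None of these fits called a member higher.

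ICAM1, IL1B and the chemokines CXCL1, CXCL2 and CXCL3 were separated downwards. ICAM1, an adhesion molecule for leukocytes (chromosome 19, 10381769 to 10397291, GRCh37), stood at 75.5 and 77.4 CPM at 0.05 μM and at 50.9 and 45.0 CPM at 0.5 μM. Both libraries of the higher dose were lower, and the fitted log2 fold change was -0.67 with a standard error of 0.15 (edgeR adjusted p = 0.893). IL1B, the cytokine interleukin 1 beta (chromosome 2, 113587328 to 113594393), stood at 22.5 and 21.4 CPM and then at 12.2 and 11.9 CPM, a log2 fold change of -0.86 with a standard error of 0.21. Its replicates differed by less than 2 CPM within each dose. CXCL1, a neutrophil chemokine, stood at 58.8 and 63.9 CPM and then at 39.7 and 38.8 CPM. The neighbouring chemokine genes CXCL2 and CXCL3 had log2 fold changes of -0.65 and -0.64, with standard errors of 0.22 and 0.18, close to the -0.64 of CXCL1 with its standard error of 0.20. These 3 genes are close copies of each other on chromosome 4, so reads may have been split between them.

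TNFAIP3, which encodes the NF-κB inhibitor A20, stood at 122 and 142 CPM at 0.05 μM and at 85.4 and 90.7 CPM at 0.5 μM, a log2 fold change of -0.58 with a standard error of 0.15. RELB, a subunit of NF-κB, had 62.4 and 71.5 CPM and then 46.5 and 43.4 CPM. CSF3, the granulocyte colony-stimulating factor, was low throughout, at 1.94 and 2.65 CPM and then 1.14 and 1.07 CPM. NLRP3, the inflammasome sensor, which was not on the list, stood at 2.23 and 1.89 CPM and then at 1.07 and 0.957 CPM, a log2 fold change of -1.02 with a standard error of 0.23. Separation was not shared by the whole list. CXCL8, the chemokine interleukin 8, overlapped between the doses, at 1127 and 876 CPM and then 775 and 939 CPM. BIRC3, TNF, IL11 and IL24 overlapped as well, and CCL2, a monocyte chemokine, was higher in both libraries of the higher dose, at 517 and 426 CPM and then 545 and 526 CPM (log2 fold change 0.18, standard error 0.20).

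The promoters of 5 of these genes are shown because each holds the κB motif that NF-κB binds. The sequences are the 250 bases before the annotated start, from RefSeq on GRCh38.p14, written 5′ to 3′ on the strand of the gene, and capitals mark the motif GGANTTTCC on either strand, N being any base. The windows are chr19:10270870-10271119 for ICAM1, chr6:137867009-137867258 for TNFAIP3, chr4:73869143-73869392 for CXCL1, chr4:74099196-74099445 for CXCL2 and chr4:74038690-74038939 for CXCL3. CXCL2 and CXCL3 lie on the minus strand and the others on the plus strand.
ICAM1: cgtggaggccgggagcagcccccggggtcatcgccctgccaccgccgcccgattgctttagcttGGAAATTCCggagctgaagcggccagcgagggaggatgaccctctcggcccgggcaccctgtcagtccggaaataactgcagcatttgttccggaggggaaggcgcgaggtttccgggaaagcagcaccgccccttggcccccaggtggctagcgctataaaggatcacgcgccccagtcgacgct
TNFAIP3: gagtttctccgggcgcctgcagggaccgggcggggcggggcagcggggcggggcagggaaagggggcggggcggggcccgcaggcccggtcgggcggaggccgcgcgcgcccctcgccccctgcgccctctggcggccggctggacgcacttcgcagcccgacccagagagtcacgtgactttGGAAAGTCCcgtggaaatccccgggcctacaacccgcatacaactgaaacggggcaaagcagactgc
CXCL1: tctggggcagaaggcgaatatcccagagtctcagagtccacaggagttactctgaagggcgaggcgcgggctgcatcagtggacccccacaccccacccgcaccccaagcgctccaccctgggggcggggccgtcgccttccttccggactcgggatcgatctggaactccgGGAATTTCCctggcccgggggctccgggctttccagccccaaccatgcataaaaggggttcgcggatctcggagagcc
CXCL2: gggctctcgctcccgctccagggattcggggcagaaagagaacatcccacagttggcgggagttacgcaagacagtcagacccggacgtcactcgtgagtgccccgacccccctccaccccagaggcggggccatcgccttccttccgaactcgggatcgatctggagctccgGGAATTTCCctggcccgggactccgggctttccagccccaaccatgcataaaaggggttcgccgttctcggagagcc
CXCL3: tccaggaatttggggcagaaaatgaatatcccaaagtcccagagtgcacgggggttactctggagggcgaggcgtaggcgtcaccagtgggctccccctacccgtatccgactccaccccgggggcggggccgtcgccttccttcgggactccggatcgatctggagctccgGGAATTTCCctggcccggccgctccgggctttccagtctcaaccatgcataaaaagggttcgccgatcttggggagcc

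The motif lies at bases -186 to -178 from the start in ICAM1, at -67 to -59 in TNFAIP3, at -78 to -70 in CXCL1 and CXCL3 and at -77 to -69 in CXCL2, and in ICAM1 and TNFAIP3 it is read on the opposite strand. Of 28 windows found for 23 of the 29 tested members, 12 held the motif (42.9%), against 510 of all 35116 windows (1.45%). The list was compiled from known targets, so that this share describes the list and not the dose step. IL1B and CCL20 had no match in their windows although both were lower, and CXCL8 had one although its libraries overlapped.

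AP-1 and immediate early genes, the transcription factors that signals switch on first, were lower as a group. All 27 tested members of 28 matched had a negative log2 fold change, from -0.15 to -1.17 with a median of -0.38, and 24 of them (88.9%) had both libraries at 0.5 μM below both at 0.05 μM. An unadjusted p-value under 0.05 was reached by 8, and by 19 with the 4 libraries alone, 20 with the 8 treated, 19 on day 4 and 12 with DESeq2 on 12 libraries, all lower. Adjusted calls, all lower, numbered 2 with the 4 libraries, 1 with the 8 treated, 1 on day 4, 1 with DESeq2 and 13 with DESeq2 on the 8 treated. FOS (chromosome 14, 75745529 to 75748933, GRCh37) stood at 87.2 and 89.0 CPM at 0.05 μM and at 52.4 and 42.5 CPM at 0.5 μM. Its log2 fold change of -0.89, with a standard error of 0.15, had a 95% interval from -1.23 to -0.56 (edgeR adjusted p = 0.706). FOSB, which pairs with JUN proteins as FOS does, stood at 82.1 and 111 CPM and then at 46.5 and 39.3 CPM, a log2 fold change of -1.17 with a standard error of 0.35. Its interval from -1.93 to -0.41 was wide.

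The partners and the zinc finger factors of the list had smaller values. JUN had 282 and 309 CPM and then 222 and 218 CPM, and ATF3, a stress-responsive factor of the same family, 174 and 180 CPM and then 130 and 120 CPM. EGR1, a zinc finger factor of the first wave, stood at 475 and 503 CPM at 0.05 μM and at 324 and 278 CPM at 0.5 μM, a log2 fold change of -0.70 with a standard error of 0.24. The orphan receptor genes NR4A1, NR4A2 and NR4A3 overlapped between the doses. The list median ran from -0.29 without replicate 2 at 0.5 μM to -0.50 without replicate 1 at 0.5 μM, and offsets for GC and length gave -0.28, so the list was less firmly measured than the inflammatory genes.

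EGR1 is shown as an example of an immediate early promoter, because it holds a pair of CArG boxes, the sites of serum response factor. The window of 250 bases is chr5:138465229-138465478 on the plus strand of GRCh38.p14 from RefSeq, and capitals mark the CArG boxes, at bases -105 to -96 and -83 to -74 from the start.
EGR1: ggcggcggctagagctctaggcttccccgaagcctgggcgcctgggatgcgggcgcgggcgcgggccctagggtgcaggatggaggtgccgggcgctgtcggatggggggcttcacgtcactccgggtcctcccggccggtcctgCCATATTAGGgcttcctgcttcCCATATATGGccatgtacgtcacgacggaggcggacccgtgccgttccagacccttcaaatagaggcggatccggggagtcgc

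A CArG box on either strand was found in 2 of 25 windows of the list (8%) and in 1.16% of all windows, and the AP-1 element TGANTCA in 0 of the 25 and in 6.57% of all windows. Here too the shares describe a list compiled by hand and not the dose step. FOS and FOSB themselves held none of these motifs in their windows.

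RRAD and HSPA6 were outside both groups. RRAD, a small GTPase of the RGK family (chromosome 16, 66955588 to 66959438, GRCh37), had the smallest unadjusted p-value of all genes tested, 6.16e-05. It stood at 11 and 11.4 CPM at 0.05 μM and at 6.12 and 4.86 CPM at 0.5 μM, a log2 fold change of -1.03 with a standard error of 0.17 (edgeR adjusted p = 0.706). In the untreated cells of day 4 it had 3.60 and 3.20 CPM and at 0.005 μM 4.53 and 5.30 CPM, so the 2 libraries at 0.05 μM held the highest levels of the 10 libraries of day 4. HSPA6, an inducible chaperone of the HSP70 family, stood at 2.78 and 2.19 CPM and then at 1.14 and 1.20 CPM, a log2 fold change of -1.09 with a standard error of 0.22. It had 5.55 and 6.83 CPM in untreated cells of day 4, and each of the last 3 doses was lower than the dose before.

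Heat shock genes as a group did not follow HSPA6. Of 27 tested, 11 were lower and 16 higher, with a median of 0.02 that ran from -0.05 to 0.12 when 1 of the 4 libraries was left out. The 4 with an unadjusted p-value under 0.05 were all lower, HSPA6, HSPB8, HSPA1A and HSPA1B. HSPB8, a small heat shock protein, had 7.29 and 6.77 CPM and then 4.74 and 4.14 CPM. HSPA1A and HSPA1B are near-identical neighbours on chromosome 6 whose reads cannot be told apart safely, and their log2 fold changes were -0.63 and -0.56 with standard errors of 0.26 and 0.23. The promoter of HSPA6 (chr1:161524290-161524539, plus strand, RefSeq on GRCh38.p14) is shown with its heat shock element, searched on either strand as GAA, TTC and GAA with any 2 bases between these blocks, in capitals at bases -74 to -62, read on the opposite strand.
HSPA6: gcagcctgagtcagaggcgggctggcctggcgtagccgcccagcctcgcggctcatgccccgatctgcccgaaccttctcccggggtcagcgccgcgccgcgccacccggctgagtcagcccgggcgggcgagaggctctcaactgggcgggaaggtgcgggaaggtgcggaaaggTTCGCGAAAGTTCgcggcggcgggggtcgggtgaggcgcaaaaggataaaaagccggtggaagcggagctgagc

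This element was found in 7 of 36 windows of the heat shock list (19.4%) and in 0.441% of all windows. That share describes the list, which was compiled by hand, and not the dose step.

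**Figure D1:**
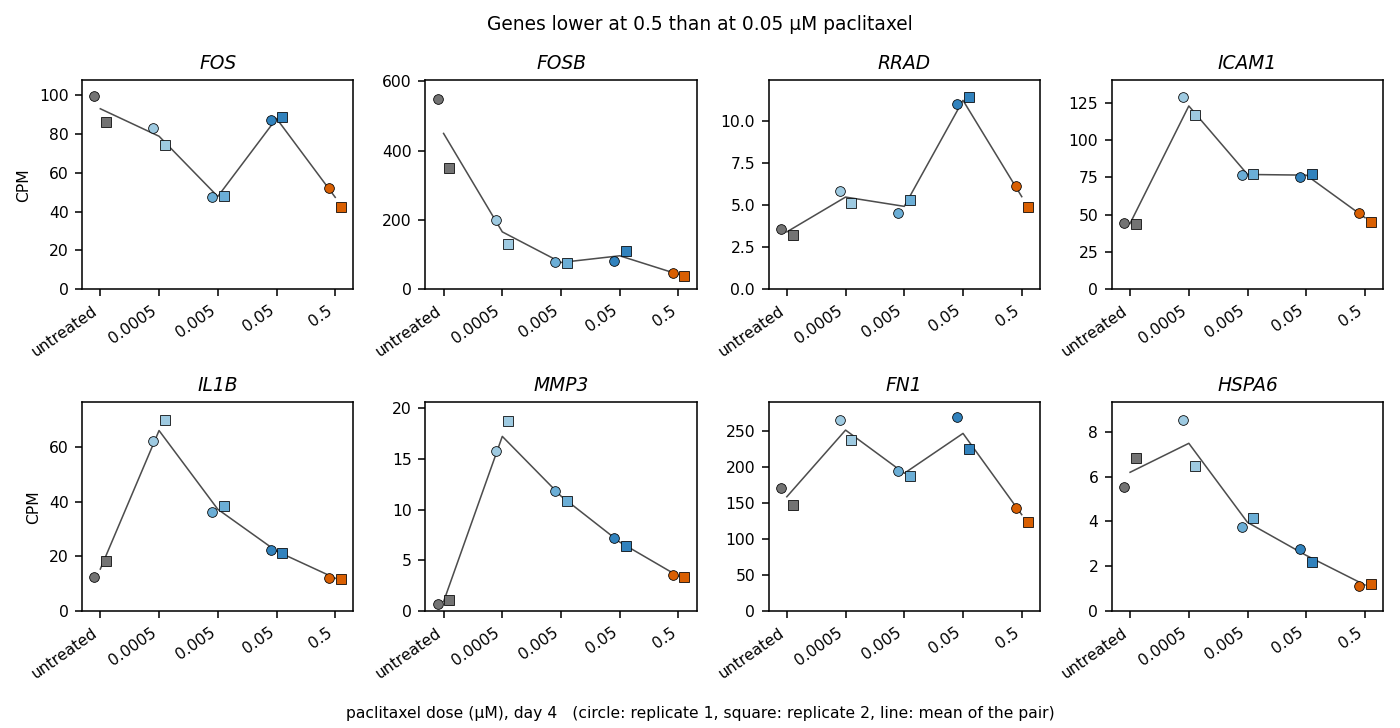
Levels of 8 genes in CPM in each library of day 4, untreated or at the 4 doses of Paclitaxel in μM, with circles for replicate 1, squares for replicate 2 and a line through the means. In all 8 panels both libraries at 0.5 μM lie below both at 0.05 μM, and RRAD peaks at 0.05 μM while IL1B and MMP3 peak at 0.0005 μM.

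Genes of the matrix and of its remodelling were lower in most cases. Of 31 tested collagen, laminin and other matrix genes 25 were lower, with a median of -0.24, and 19 were separated downwards (61.3%). With offsets for GC and length the median was -0.10 and 21 were lower. FN1, the matrix glycoprotein fibronectin (chromosome 2, 216225163 to 216300796, GRCh37), stood at 269 and 224 CPM at 0.05 μM and at 143 and 124 CPM at 0.5 μM, a log2 fold change of -0.88 with a standard error of 0.25. The untreated cells of day 4 had 170 and 147 CPM, so FN1 at 0.5 μM lay below them and at 0.05 μM above them. The fibrillar collagen COL1A1 overlapped, at 6.77 and 9.30 CPM and then 7.19 and 8.96 CPM.

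Among matrix proteases and their inhibitors 20 of 28 tested were lower, with a median of -0.29, and 3 reached an unadjusted p-value under 0.05. That median became -0.17 with the GC and length offsets and -0.18 without replicate 2 at 0.5 μM. MMP3, the protease stromelysin 1, stood at 7.18 and 6.45 CPM and then at 3.56 and 3.33 CPM, a log2 fold change of -0.98 with a standard error of 0.20. Its count was nearly identical to that of an unnamed identifier, and the reads may come from either. MMP1, the interstitial collagenase, had 113 and 90.5 CPM and then 70.1 and 69.7 CPM (log2 fold change -0.54, standard error 0.28).

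The medians of adhesion and growth signalling lists were also negative, and smaller in size than that of the inflammatory list. Of 21 tested genes of MAPK feedback and ERK output 20 were lower, with a median of -0.23, and 17 were separated (81.0%). In the fit of 12 libraries 1 reached an unadjusted p-value under 0.05, against 7 lower with the 4 libraries, 8 with the 8 treated and 9 on day 4. The 1 gene was DUSP8, a phosphatase of the stress kinases, at 7.06 and 8.73 CPM and then 5.39 and 5.26 CPM. Of 20 tested YAP and SRF target genes 18 were lower, with a median of -0.22. By edgeR over 12 libraries 0 reached an unadjusted p-value under 0.05, against 6 lower with the 4 libraries, 9 with the 8 treated and 7 on day 4, and DESeq2 on 12 libraries gave 1. CCN1 and CCN2, secreted matricellular targets of YAP, had log2 fold changes of -0.36 and -0.41 with standard errors of 0.30 and 0.31. Integrin and focal adhesion genes had 19 of 32 lower and 13 higher, with a median of -0.11, and actin and myosin genes 27 of 49 lower and 22 higher, with a median of -0.12. The replicates at 0.5 μM differed in these lists, and without replicate 2 at 0.5 μM the medians were -0.14 for both MAPK feedback and YAP targets, -0.06 for integrins and -0.01 for actin and myosin, against -0.37, -0.34, -0.28 and -0.20 without replicate 1.

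The lists of glycolysis and hypoxia and of ER stress and amino acid response had medians between those of the inflammatory list and of all genes. Of 36 tested glycolysis and hypoxia genes 25 were lower, with a median of -0.18 (-0.10 with the GC and length offsets) and 4 at an unadjusted p-value under 0.05. LOX, the collagen cross-linking lysyl oxidase that hypoxia induces, stood at 76.9 and 81.9 CPM and then at 59.8 and 54.8 CPM, a log2 fold change of -0.47 with a standard error of 0.13. In the list of ER stress and amino acid response 21 of 29 were lower, with a median of -0.14, but without replicate 1 at 0.05 μM 15 were lower and the median was -0.02. CHAC1, a glutathione-degrading enzyme of that response, had 19.9 and 19.6 CPM and then 14.9 and 14.2 CPM, and SESN2, a stress-induced inhibitor of mTORC1, 27.5 and 27.3 CPM and then 19.9 and 18.8 CPM.

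The p53 target list had a median of -0.07, with 16 of 26 lower, and the median ran from -0.03 to -0.13 when 1 of the 4 libraries was left out. GADD45A, a growth arrest gene, stood at 94.0 and 89.9 CPM at 0.05 μM and at 68.9 and 61.0 CPM at 0.5 μM, a log2 fold change of -0.50 with a standard error of 0.14. CDKN1A, the cell cycle inhibitor p21, had 67.9 and 72.4 CPM and then 54.8 and 49.7 CPM (log2 fold change -0.42, standard error 0.17). Interferon-stimulated genes had a list median of 0.06, near that of all genes, which was -0.05 without replicate 2 at 0.05 μM, and IFIT1, an antiviral effector of that response, overlapped at 62.5 and 41.7 CPM and then 56.1 and 60.8 CPM. MDA-MB-231 carries a mutated p53, so the name of that list describes its members and not the activity of p53.

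**Figure D2:**
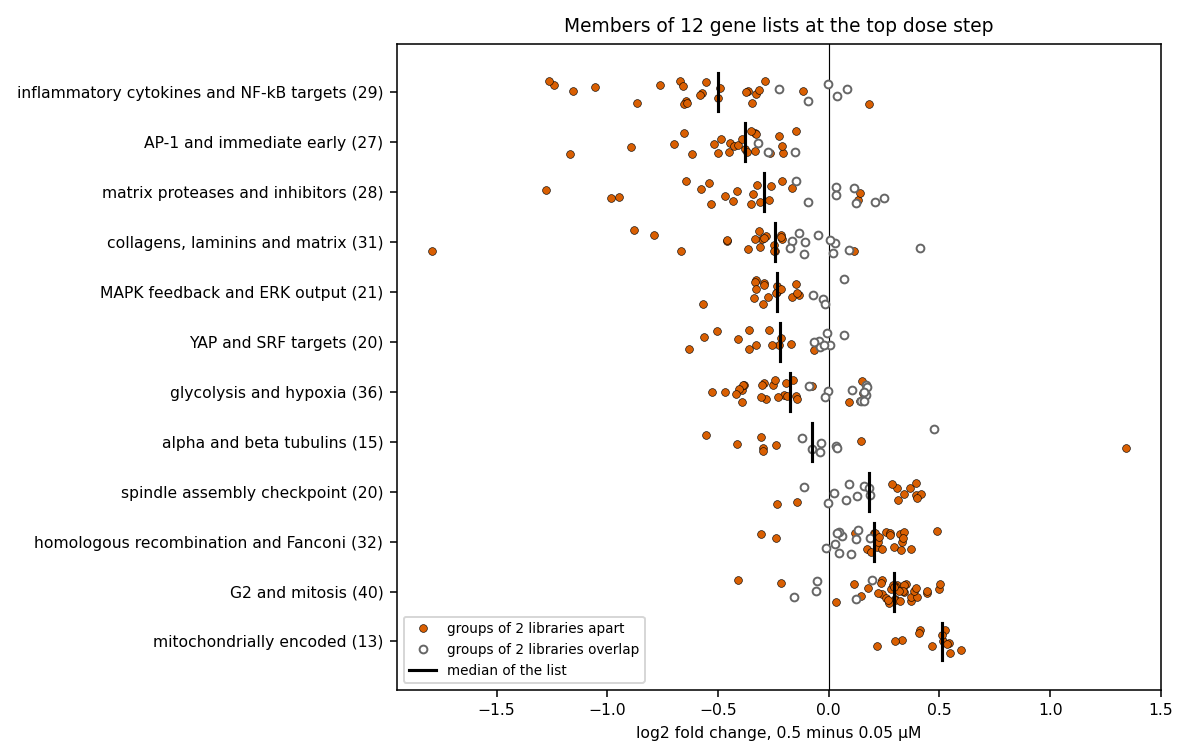
Fitted log2 fold change from 0.05 to 0.5 μM for each tested member of 12 gene lists, with filled points where the 2 libraries of each dose do not overlap, open points where they do, and a bar at the list median. The inflammatory list has its median at -0.50, the list of G2 and mitosis at 0.29 and the mitochondrially encoded list at 0.51.

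Genes of mitosis ran the other way. Of 40 tested genes of G2 and mitosis 35 were higher at 0.5 μM, the median log2 fold change was 0.29, and 33 (82.5%) had both libraries at 0.5 μM above both at 0.05 μM, against 19.3% of all genes. An unadjusted p-value under 0.05 was reached by 7, all higher. With the 4 libraries alone 14 reached it higher, with the 8 treated 21 and on day 4 18, each with 1 lower, and DESeq2 on the 8 treated libraries called 3 higher. ASPM, a spindle pole protein (chromosome 1, 197053251 to 197115824, GRCh37), stood at 75.9 and 71.1 CPM and then at 103 and 97.3 CPM, a log2 fold change of 0.45 with a standard error of 0.14 (edgeR adjusted p = 0.893). SPC25, a subunit of the NDC80 kinetochore complex, stood at 14.2 and 10.5 CPM and then at 16.8 and 18.1 CPM, a log2 fold change of 0.50 with a standard error of 0.18. KIF23, a kinesin of the central spindle, had 113 and 98.1 CPM and then 138 and 137 CPM.

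The 2 libraries at 0.05 μM were unequal for these genes. CCNB1, the mitotic cyclin B1, had 247 CPM in replicate 1 and 178 CPM in replicate 2, and 290 and 261 CPM at 0.5 μM. AURKA, a mitotic kinase, had 134 and 103 CPM and then 161 and 145 CPM. The median of the list was 0.12 without replicate 2 at 0.05 μM and 0.43 without replicate 1, and it was 0.19 with the GC and length offsets, so its size depends on these choices while its sign did not change under them. Members outside the trend were FOXM1, the transcription factor of this program, at 63.2 and 59.5 CPM and then 51.4 and 41.0 CPM, and the kinase gene PLK1, at 72.5 and 70.4 CPM and then 68.6 and 54.4 CPM. MKI67, the proliferation marker Ki-67, had 175 CPM in both libraries at 0.05 μM and 178 and 181 CPM at 0.5 μM (log2 fold change 0.03, standard error 0.25).

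The spindle assembly checkpoint, which delays anaphase until all kinetochores are attached, had 16 of 20 genes higher and a median of 0.18, with 5 at an unadjusted p-value under 0.05. KNL1, the kinetochore scaffold that recruits BUB proteins, stood at 60.4 and 53.6 CPM and then at 78.0 and 72.4 CPM, a log2 fold change of 0.40 with a standard error of 0.14. BUB1B, the checkpoint kinase BUBR1, had 62.0 and 52.0 CPM and then 77.9 and 72.0 CPM. CDC20, AURKB and BIRC5 overlapped between the doses. Without replicate 2 at 0.05 μM the median was 0.03.

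Genes of homologous recombination and the Fanconi pathway, which repair double strand breaks and crosslinks during S and G2 phase, had 29 of 32 members higher, a median of 0.21 and 6 at an unadjusted p-value under 0.05. BRCA2, a breast cancer susceptibility gene of this pathway, stood at 26.4 and 28.2 CPM and then at 34.1 and 35.1 CPM, a log2 fold change of 0.34 with a standard error of 0.13. BRIP1, a helicase partner of BRCA1, had 17.1 and 17.3 CPM and then 21.6 CPM in both libraries. This median ran from 0.14 to 0.22 when 1 library was left out and was 0.17 with the correction for GC content and length. In the untreated cells of day 4 BRIP1 had 35.2 and 37.7 CPM, so both doses lay below the untreated level. The list of DNA replication had a smaller median, 0.09, and 28 of its 45 genes were higher, but without replicate 2 at 0.05 μM or without replicate 1 at 0.5 μM the median was 0.01 and 23 were higher.

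KIF23 is shown for the promoters of this group because its window holds the cell cycle homology region. The 250 bases are chr15:69414099-69414348 on the plus strand of GRCh38.p14 from RefSeq, and capitals mark TTTGAA at bases -55 to -50 from the start.
KIF23: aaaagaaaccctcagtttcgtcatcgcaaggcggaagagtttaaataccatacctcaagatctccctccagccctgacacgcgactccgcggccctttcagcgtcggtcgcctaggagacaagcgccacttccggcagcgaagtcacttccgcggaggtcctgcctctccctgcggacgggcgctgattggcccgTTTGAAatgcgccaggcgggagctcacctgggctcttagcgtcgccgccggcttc

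The letters TTTGAA on either strand were found in 23 of 44 windows of the G2 and mitosis list (52.3%) and in 13.3% of all windows, and the CCAAT box CCAAT in 35 of the 44 (79.5%) and in 32% of all windows. The κB motif was in 0 of the 44. Since the genes of this list were chosen by hand, these shares describe the list and not the dose step.

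**Figure D3:**
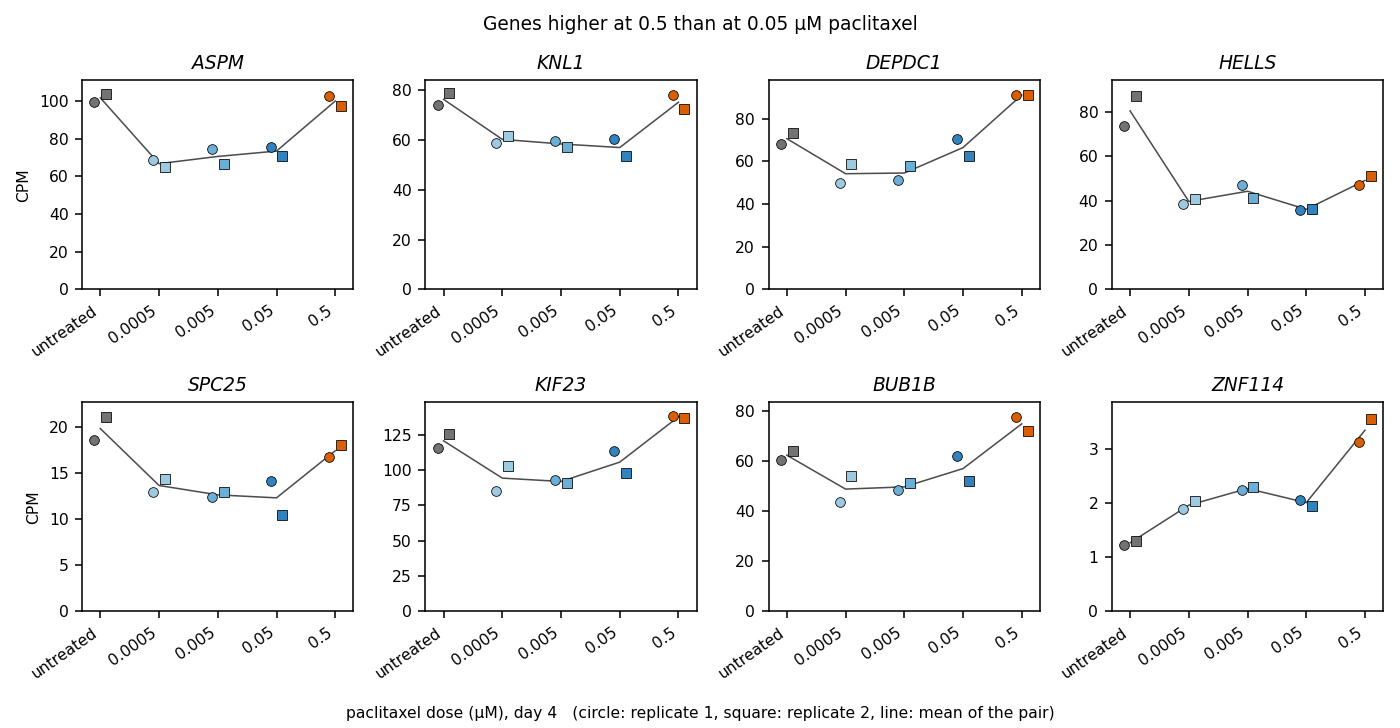
Levels of 8 genes in CPM in each library of day 4, untreated or at the 4 doses of Paclitaxel in μM, with circles for replicate 1, squares for replicate 2 and a line through the means. Both libraries at 0.5 μM lie above both at 0.05 μM in all 8 panels, and ASPM returns from 71.1 to 75.9 CPM at 0.05 μM to 97.3 to 103 CPM, near the 99.8 and 104 CPM of untreated cells.

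Among genes with a mean of at least 1 CPM in the 4 libraries, the smallest p-value in the upward direction was that of ZNF114, a zinc finger gene on chromosome 19 (48773338 to 48790865, GRCh37). It stood at 2.06 and 1.96 CPM and then at 3.14 and 3.57 CPM, a log2 fold change of 0.74 with a standard error of 0.19, and untreated cells of day 4 had 1.23 and 1.31 CPM. SERPINB5, which encodes the serpin maspin, had 0.744 and 0.692 CPM and then 1.37 and 1.42 CPM, with 0.0491 and 0.11 CPM in untreated cells. DEPDC1, a mitotic gene, had 70.6 and 62.3 CPM and then 91.3 and 90.9 CPM. HELLS, a chromatin remodeller of replicating cells, had 35.9 and 36.2 CPM and then 47.1 and 51.0 CPM, a log2 fold change of 0.44 with a standard error of 0.14. BCHE, FIGNL1, N4BP2L1 and the noncoding LINC00648 were also among the 12 such genes, with log2 fold changes from 0.37 to 0.60. The noncoding LINC01852 had 0.941 and 0.652 CPM and then 1.32 CPM in both libraries.

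The imprinted noncoding H19 was the named gene with the lowest log2 fold change outside the lists. It stood at 1.67 and 1.32 CPM and then at 0.645 and 0.607 CPM, a log2 fold change of -1.25 with a standard error of 0.27. ZNF467, a zinc finger gene, had 2.60 and 2.81 CPM and then 1.67 and 1.43 CPM, and DEPP1, a target of FOXO factors, 8.20 and 7.71 CPM and then 5.72 and 4.67 CPM. KRT14, a basal keratin, had 1.42 and 1.28 CPM and then 0.675 and 0.533 CPM. PDGFRA and PDGFRB, receptors for platelet-derived growth factor, had 2.16 and 2.00 CPM and then 0.991 and 1.10 CPM, and 8.22 and 8.27 CPM and then 4.95 and 4.05 CPM. They are also markers of fibroblasts. Of the other 5 tested markers of that list FAP and COL3A1 were lower in both libraries at 0.5 μM, and LUM, THY1 and COL1A1 overlapped between the doses.

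Tubulin genes, which encode the drug's target, had a list median near 0. Of 15 tested 10 were lower, 6 of them separated (40%), with a median of -0.08, and 0 reached an unadjusted p-value under 0.05. With the 4 libraries alone, the 8 treated and the 10 of day 4, 3 in each fit were lower at that level. The list median ran from -0.00 to -0.18 when 1 of the 4 libraries was left out. TUBB, a β-tubulin, stood at 1265 and 1164 CPM and then at 1284 and 1206 CPM, a log2 fold change of 0.04 with a 95% interval from -0.40 to 0.47. TUBA1B, an α-tubulin, had a log2 fold change of 0.15 with an interval from -0.19 to 0.48, and TUBB4B one of -0.12 with an interval from -0.58 to 0.34. TUBB2A stood at 167 and 163 CPM and then at 149 and 118 CPM, a log2 fold change of -0.31 with an interval from -0.73 to 0.12, after 71.7 and 65.1 CPM in untreated cells. ABCB1, the efflux pump that exports Paclitaxel, was at 0.548 and 0.509 CPM and then 0.39 and 0.662 CPM, with overlapping libraries.

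RNA of the mitochondrial genome was higher at 0.5 μM in all 13 tested genes, each with separated libraries (100%), and the median was 0.51. By edgeR over 12 libraries 0 reached an unadjusted p-value under 0.05, 7 did so with the 4 libraries alone, and 2 each with the 8 treated and on day 4, and DESeq2 on 12 libraries gave 0. MT-CO1, a subunit of cytochrome c oxidase, stood at 8278 and 6411 CPM and then at 9803 and 12436 CPM, a log2 fold change of 0.60 with a standard error of 0.34. The mitochondrial share of all counts was 4.51% and 3.73% at 0.05 μM and 4.97% and 6.07% at 0.5 μM, and ran from 4.19% to 7.74% in the other 8 libraries. The 2 replicates differed within each dose, and the list median ran from 0.28 to 0.71 when 1 library was left out. With the correction for GC content and length it was 0.26, with 11 genes higher and 2 lower. The nuclear genes of the respiratory complexes had a median of 0.20 and the cytosolic ribosomal proteins one of 0.20, yet 7 of 45 and 3 of 74 members were separated upwards. Without replicate 2 at 0.05 μM these medians were -0.03 and -0.05, so this pair of values turned with 1 library.

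The same genes were followed along all doses of day 4, with the caution that comparisons of 0.05 and of 0.5 μM with untreated cells share libraries with the top step. The score of a list in a library is the median, over its members, of the log2 CPM less the mean over the 12 libraries. The inflammatory score was -0.13 and 0.03 in untreated cells of day 4, 1.30 and 1.18 at 0.0005 μM, 0.66 and 0.63 at 0.005 μM, 0.32 and 0.39 at 0.05 μM and -0.12 and -0.15 at 0.5 μM. It was thus highest at the lowest dose and near the untreated level of day 4 at the highest. The list median at 0.5 μM against untreated cells of day 4 was -0.18. In untreated cells of day 2 the inflammatory score was -1.92 and -1.66. The G2 and mitosis score was 0.03 and 0.08 in untreated cells, -0.34 and -0.17 at 0.0005 μM, -0.34 and -0.30 at 0.005 μM, 0.06 and -0.25 at 0.05 μM and 0.23 and 0.11 at 0.5 μM. The AP-1 score had no steady order, at 0.34 and 0.13, then 0.30 and 0.12, -0.21 and -0.25, 0.12 and 0.16, and -0.16 and -0.27.

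**Figure D4:**
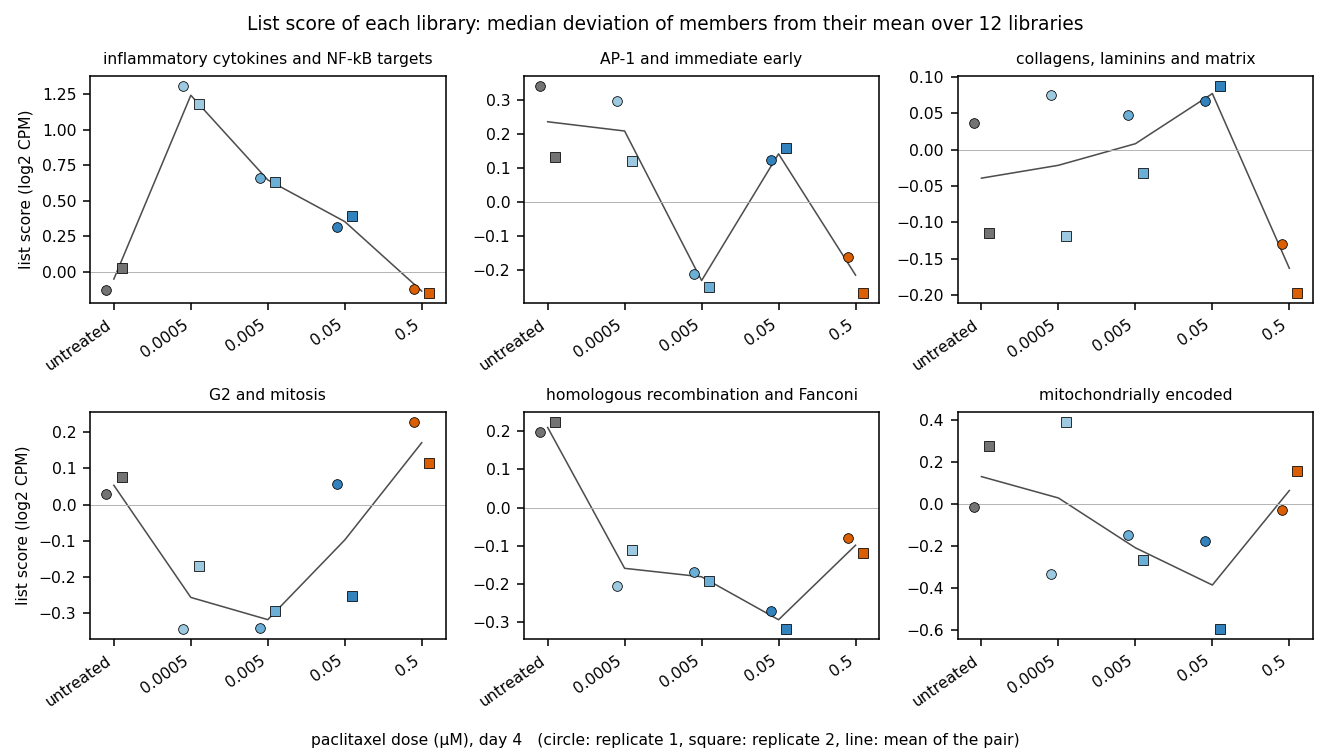
Score of 6 gene lists in each library of day 4, in log2 CPM relative to the mean over 12 libraries, for untreated cells and the 4 doses of Paclitaxel in μM, with circles for replicate 1, squares for replicate 2 and a line through the means. The inflammatory score is lower at each dose than at the dose before, from 1.30 and 1.18 at 0.0005 μM to -0.12 and -0.15 at 0.5 μM, and the mitochondrially encoded score has wide replicate gaps.

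Against untreated cells of day 4 the leading genes took several courses. MMP3 was higher at both doses, with log2 fold changes of 2.85 at 0.05 μM (edgeR adjusted p = 4.11e-05) and 1.87 at 0.5 μM (adjusted p = 0.00106). ICAM1 was 0.79 higher at 0.05 μM (adjusted p = 0.00901) and 0.12 at 0.5 μM (adjusted p = 0.667). FOSB was lower at both, by log2 fold changes of -2.22 (adjusted p = 0.00401) and -3.39 (adjusted p = 0.000632). FOS had -0.08 (adjusted p = 0.810) and -0.97 (adjusted p = 0.00492), and EGR1 2.04 (adjusted p = 0.000829) and 1.34 (adjusted p = 0.00986). A gene past the threshold at 1 dose and not at the other is not thereby shown to differ between them, and the test of that difference is the top step itself.

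The only other 10-fold step that shares no library with the top step is that from 0.0005 to 0.005 μM. There too edgeR called no gene (0 of 25249). Unadjusted p-values under 0.05 numbered 2614 (10.4%), of which 2116 were higher (8.38%) and 498 lower (1.97%) at 0.005 μM, and the libraries were separated upwards in 29.4% and downwards in 29.7% of tested genes. Among the genes of at least 8 CPM the median log2 fold change was -0.11 at that step and 0.03 at the top step, and the edgeR calls on fewer libraries, 16 with the 8 treated and 6 on day 4, were all lower, while DESeq2 on the 8 treated libraries called 291 higher and 190 lower. IL1B had a log2 fold change of -0.82 at that step and -0.86 at the top step, ICAM1 -0.68 and -0.67, FOSB -1.10 and -1.17, HSPA6 -0.92 and -1.09, and CXCL2 -0.65 at both. The fitted difference between the steps was -0.04 for IL1B with a standard error of 0.29, and 0.00 for ICAM1 with a standard error of 0.21. For the inflammatory list the medians were -0.37 at the first step and -0.50 at the top step, while the steps of its score were -0.60 and -0.49. The order of the steps thus depends on the measure for that list. For AP-1 genes the medians were -0.40 and -0.38 and the score steps -0.44 and -0.36, larger in size at the first step by both measures.

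Other values differed more between the steps. RRAD had -0.15 at the first step and -1.03 at the top step, a difference of -0.87 with a standard error of 0.24 (edgeR adjusted p = 0.92). Matrix genes had list medians of 0.00 and -0.24, genes of G2 and mitosis -0.08 and 0.29 and mitochondrially encoded genes -0.30 and 0.51. These are to be read against the shift of the genes of at least 8 CPM given above, which the first-step value of G2 and mitosis does not exceed. EXO1, an exonuclease of recombination, had -0.38 and 0.34, a difference of 0.71 with a standard error of 0.19. The difference between the steps was tested for every gene and called 0, by edgeR over 12 libraries, with 683 at an unadjusted p-value under 0.05 (2.71%; 0.97% higher and 1.73% lower). Without a filter on low counts it called 1 gene.

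**Figure D5:**
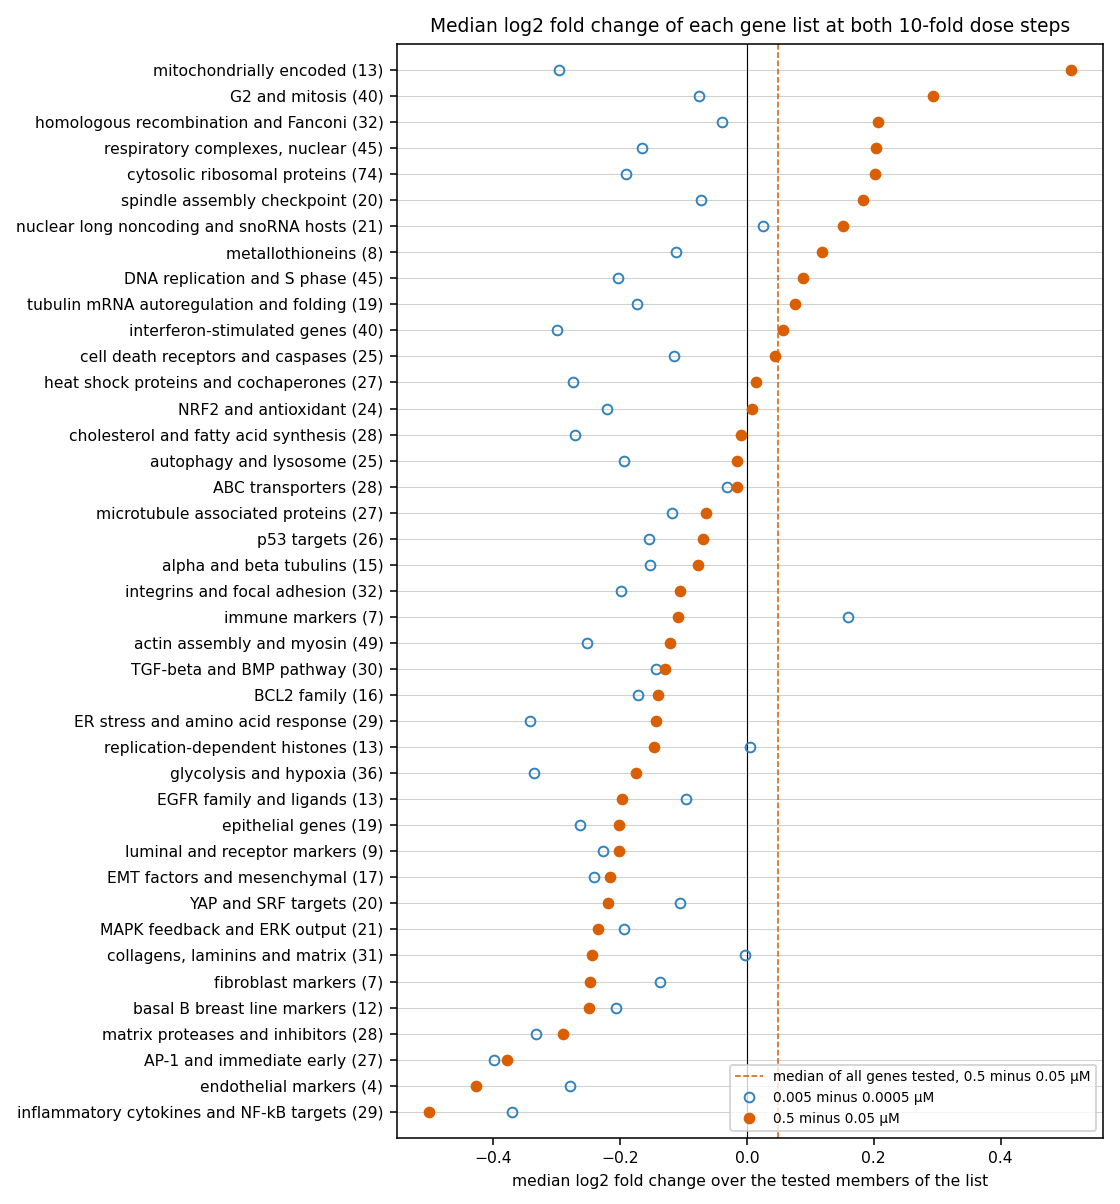
Median log2 fold change of 41 gene lists, with the number of tested members in brackets, for the step from 0.05 to 0.5 μM in filled points and the step from 0.0005 to 0.005 μM in open points; the dashed line is the median of all genes tested at the top step, 0.05. The inflammatory and AP-1 lists lie at the low end for both steps, and the lists of G2 and mitosis, checkpoint and recombination lie above the line at the top step.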

How the data were processed

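RNA of 12 libraries was sequenced, 2 for each of 6 groups, and samples were grouped by the labels. According to the methods and the submitters' processing notes, the authors trimmed reads with Trimmomatic (0.39), inspected them with FastQC (0.11.9), aligned them with STAR (2.7.5) to GRCh37, kept unique alignments and counted reads over exons with Rsubread. The deposited values are raw counts per gene, and the setting for strand is not given in the sources used here, so overlapping and antisense genes cannot be told apart. The table held 63568 identifiers, of which 14659 were 0 in all libraries and 55665 had a symbol in the gene name table. Total counts per library ran from 38380629 to 79169121.

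Counts were filtered with filterByExpr, scaled by the trimmed mean of M-values and fitted with edgeR's robust quasi-likelihood test (edgeR 4.0.16, limma 3.58.1, R 4.3.3) on 6 groups and all 12 libraries, with 6 residual degrees of freedom and Benjamini-Hochberg adjustment over 25249 genes, 22268 of them with a symbol. The threshold was an adjusted p-value of 0.05. Scores used a prior count of 2. DESeq2 (1.42.0), other filters, scalings and sets of libraries, a replicate block and omission of each library were tried as alternatives. Correlations of the deviations of same-numbered libraries ran from -0.60 to 0.70 over pairs of groups and were 0.25 for 0.05 with 0.5 μM. Since not every pair was above 0.1 and no label ties the numbers to a shared source, numbers were not used as pairs.

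Genes were named by a rule. It took the 12 genes in each direction with the smallest p-values among those with a symbol, a mean of at least 1 CPM in the 4 libraries and, where called, no overlap, then up to 2 members of each of 41 lists with the smallest p-values, and 11 genes fixed by name. Other list members were named after their values were seen. Not every gene that the rule names is reported here. The members and lists were chosen with earlier results of these data known. The fit was tested on simulated counts. Promoter windows came from RefSeq on GRCh38.p14 and gene positions from GENCODE on GRCh37.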

Additional observations from a re-analysis of the deposited data

How the results depend on the processing

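The count of genes called at the top step was 0 with edgeR over 12 libraries and stayed 0 with the other scaling, stricter filters, the non-robust fit, symbols only and corrections for GC content and length. It was 4 with DESeq2 (507 at an unadjusted p-value under 0.05), 15 without a filter beyond 1 count, 10 with the 4 libraries alone and 9 with the 8 treated libraries. With fits chosen after seeing the data it was 7 for the 10 libraries of day 4 and 420 for DESeq2 on the 8 treated libraries, nearly identical identifiers counted separately. Leaving out 1 library gave 0 to 8 calls, with 8 and 7 without the untreated day 2 replicates 1 and 2. The first step gave 653 calls without a filter (619 higher), 16 with the 8 treated libraries, 481 with DESeq2 on them (291 higher and 190 lower), 6 on day 4 and 0 to 10 when 1 library was left out, the edgeR calls on fewer libraries being lower. The difference between the steps gave 1 call without a filter. The cause was not tested. With the replicate block, which the labels' numbers do not justify as a pairing, 0 genes were called at the top step, with 806 instead of 649 at an unadjusted p-value under 0.05.

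A few small log2 fold changes changed sign. TUBB was -0.0013 and MKI67 -0.0053 without a filter. When each library was left out in turn, TUBB ran from -0.043 to 0.10, ABCB1 from -0.43 to 0.29, TUBB4B from -0.34 to 0.051, IFIT1 from -0.11 to 0.49 and CASP6 from -0.019 to 0.43. The negative values came from leaving out replicate 2 at 0.05 μM for IFIT1 and CASP6 and from 2 omissions for TUBB (also -0.040), and ABCB1 was positive in 2 omissions (also 0.035).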

Other observations

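Several lists outside the main accounts held genes with small differences. Replication-dependent histones had a median log2 fold change of -0.15 over 13 tested genes (-0.05 without replicate 1 at 0.5 μM). Their summed level was 1082 to 1109 CPM at 0.05 μM and 752 to 895 CPM at 0.5 μM. The list score overlapped between the doses, with a step of 0.05, so the direction depends on the measure. Other histone symbols of the list matched no identifier, so this covers part of the family. H4C8, a gene for histone H4, stood at 14.3 and 13.9 CPM at 0.05 μM and at 10.3 and 10.5 CPM at 0.5 μM. Noncoding RNAs and snoRNA host genes had 18 of 21 members higher, with a median of 0.15, but 12 higher and a median of 0.02 without replicate 2 at 0.05 μM. Among ligands of the EGF receptor AREG, amphiregulin, had 46.5 and 43.1 CPM and then 36 and 32.9 CPM, and the list median was -0.20 over 13 genes. A further entry, AREGB, had a log2 fold change of -0.42 with DESeq2 on the 8 treated libraries. Reads may have been split between AREG and AREGB. INHBA, which encodes a subunit of activin, had 14 and 15.4 CPM and then 8.95 and 10.9 CPM. Autophagy, cholesterol synthesis and antioxidant genes had medians between -0.02 and 0.01, each of which changed sign when single libraries were left out. None of these genes was called by edgeR over 12 libraries.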
